A study of Mus musculus with 9 samples.

Results

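The sarcomeric myosin heavy chains are the motor proteins of the thick filament of striated muscle, and 8 genes of this family were taken from the 55471 gene rows of the count matrix: Myh3, Myh8, Myh1, Myh2, Myh4, Myh7, Myh6 and Myh7b. Myh13 and Myh15, which also belong to the family, were read only for comparison. The rows were taken by their Ensembl gene IDs, and all 8 passed the filter on low counts. RNA came from the gastrocnemius, a calf muscle of mostly fast fibres in the adult, of mice at postnatal day 0 to 1, of the strain C57BL/6 by the labels. The study's methods give C57BL/6JRj for the heterozygous matings behind the knockouts. The mice were 5 Shank3Δ11(-/-) knockouts (KO), which lack exon 11 of the synaptic scaffold gene Shank3 and were bred from heterozygous parents, and 4 Shank3(+/+) wildtypes (WT), with 1 library per mouse and no other allele or treatment named in the labels. The study asked how the loss of Shank3 changes transcripts in newborn muscle, and left KO2 and KO4 out of its comparison for insufficient reads, so KO1, KO3 and KO5 were compared with WT1 to WT4. KO2 and KO4 are given beside them for the chains. In the deposited counts no mouse exceeded KO4, and KO2, at 28211941, was above the retained KO5, at 26444372. The reads behind the exclusion were not analysed here.

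Each fibre assembles its thick filaments from a small set of heavy chains, and the chain it uses largely sets how fast the filament hydrolyses ATP and shortens. Developing muscle first makes the embryonic chain (Myh3) and the neonatal or perinatal chain (Myh8), which the adult fast chains IIx (Myh1), IIa (Myh2) and IIb (Myh4) replace after birth in a fast muscle. Slow fibres carry the beta chain (Myh7), which is also a chain of the heart ventricle. The alpha chain (Myh6) is best known from the heart, and Myh7b is an ancient slow-type chain whose intron carries a miRNA. The embryonic, neonatal and adult fast genes sit side by side in 1 cluster.

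On mm10 (GENCODE M21) the cluster lies on the plus strand of chromosome 11. Myh3 (ENSMUSG00000020908) runs from 67078300 to 67102291, Myh2 (ENSMUSG00000033196) from 67171027 to 67197517 and Myh1 (ENSMUSG00000056328) from 67200052 to 67224575. Myh4 (ENSMUSG00000057003) follows from 67238029 to 67260446, and Myh8 (ENSMUSG00000055775) from 67277124 to 67308634. The cardiac pair lies head to tail on the minus strand of chromosome 14, with Myh6 (ENSMUSG00000040752) from 54941921 to 54966927 and Myh7 (ENSMUSG00000053093) from 54970684 to 54994626. Myh7b (ENSMUSG00000074652) is alone on the plus strand of chromosome 2, from 155611212 to 155634307. The counts cover the whole of each gene's annotated exons.

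The promoters of the cluster are shown because 4 of its genes share a stretch of letters and some of their levels were correlated across the mice. Each line gives 250 bases before and 50 after the transcription start of the RefSeq table (GRCm38.p6, plus strand of chromosome 11), for Myh3 chr11:67078050-67078349, Myh8 chr11:67276874-67277173, Myh1 chr11:67199852-67200151, Myh2 chr11:67170777-67171076 and Myh4 chr11:67237562-67237861. Capitals mark the shared stretch and, on the gene's strand, the TATA box letters TATAAA.
Myh3: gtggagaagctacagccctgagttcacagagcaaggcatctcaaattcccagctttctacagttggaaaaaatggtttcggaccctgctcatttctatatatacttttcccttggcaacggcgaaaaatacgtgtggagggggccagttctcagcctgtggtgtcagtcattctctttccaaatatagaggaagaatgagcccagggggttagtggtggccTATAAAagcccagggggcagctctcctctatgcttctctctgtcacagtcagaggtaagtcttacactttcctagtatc
Myh8: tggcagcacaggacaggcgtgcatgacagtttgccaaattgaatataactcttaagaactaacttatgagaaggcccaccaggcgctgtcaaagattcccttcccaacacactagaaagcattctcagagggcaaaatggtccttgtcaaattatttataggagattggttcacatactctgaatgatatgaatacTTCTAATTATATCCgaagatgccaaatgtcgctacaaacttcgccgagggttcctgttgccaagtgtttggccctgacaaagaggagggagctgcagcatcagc
Myh1: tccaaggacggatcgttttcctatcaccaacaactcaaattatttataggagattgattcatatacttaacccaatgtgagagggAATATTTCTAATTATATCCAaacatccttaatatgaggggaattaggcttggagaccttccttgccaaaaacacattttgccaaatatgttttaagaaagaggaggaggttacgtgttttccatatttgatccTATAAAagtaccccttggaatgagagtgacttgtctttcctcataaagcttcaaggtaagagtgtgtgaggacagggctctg
Myh2: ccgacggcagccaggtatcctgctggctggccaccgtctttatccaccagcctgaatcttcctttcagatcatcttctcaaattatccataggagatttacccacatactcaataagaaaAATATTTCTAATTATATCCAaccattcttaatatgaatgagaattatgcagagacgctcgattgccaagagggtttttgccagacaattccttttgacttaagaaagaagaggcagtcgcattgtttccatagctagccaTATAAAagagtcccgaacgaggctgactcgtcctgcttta
Myh4: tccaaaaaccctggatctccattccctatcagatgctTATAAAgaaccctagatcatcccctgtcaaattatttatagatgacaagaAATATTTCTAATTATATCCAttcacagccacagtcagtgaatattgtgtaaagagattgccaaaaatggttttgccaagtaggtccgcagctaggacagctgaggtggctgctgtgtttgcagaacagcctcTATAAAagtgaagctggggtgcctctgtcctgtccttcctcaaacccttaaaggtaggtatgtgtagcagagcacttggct

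The 14 bases TTCTAATTATATCC stand in the promoters of Myh8, Myh1, Myh2 and Myh4 and in none of the other promoters, 4 of the 27025 searched on both strands (0.0148%). They begin 54 bases before the start of Myh8, 160 before Myh1, 125 before Myh2 and 158 before Myh4. These distances depend on the annotated starts, which were not checked against the reads. In Myh2 the TATAAA of the gene's strand lies after the annotated start. In Myh1, Myh2 and Myh4 the match extends to 20 bases, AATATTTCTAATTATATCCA, which 3 of the 27025 promoters hold (0.0111%). The stretch was found by comparing these promoters, so its rarity elsewhere is a description. TATAAA, on either strand, is in 14.2% of the promoters and in 6 of the 8 here, all but Myh7 and Myh7b. On the gene's strand it begins 29 bases before the start in Myh3, 32 before in Myh1 and 31 before in Myh4. In Myh2 and Myh6 it begins 10 and 1 bases after the start. In Myh8 it is on the other strand only, at -96. Whether these letters act as a TATA box was not tested.

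**Figure D1:**
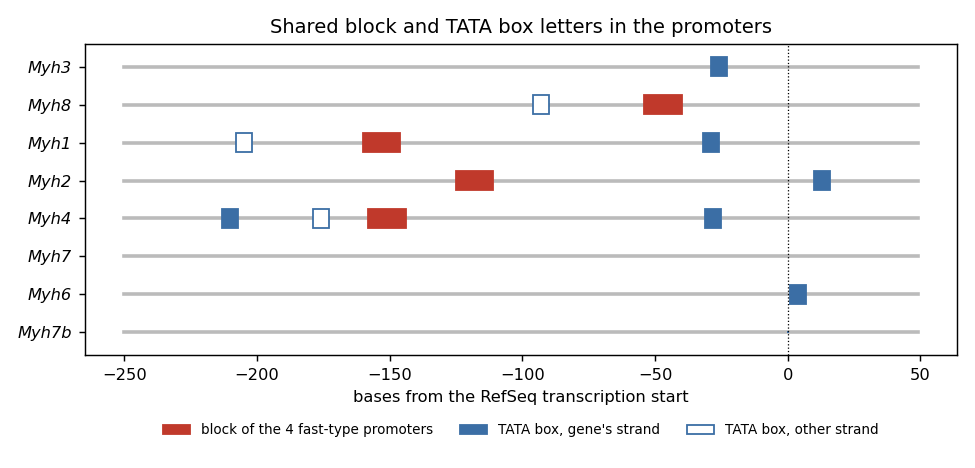
Position of the shared 14 bases and of TATAAA in the 8 promoters; the horizontal axis is the distance in bases from the RefSeq transcription start and each row is a gene. The shared stretch is in the 4 rows of Myh8, Myh1, Myh2 and Myh4, nearest to the annotated start in Myh8.

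The coding sequences are of nearly 1 length, from 5805 bases in Myh7 to 5826 in Myh1 and Myh2, and differ in how alike they are. Myh6 and Myh7 are 91.7% identical over 5802 aligned bases, Myh1 and Myh2 91.0% over 5826 and Myh1 and Myh8 89.3% over 5805. Myh3 is 80.7% identical to Myh8, and Myh7b between 68.7% and 72.1% identical to the others. Of all 50-base windows of the coding sequence, 27.9% of those of Myh2, 27.2% of Myh1, 21.1% of Myh8, 19.2% of Myh4 and 23.8% of Myh6 occur letter for letter in another member, against 3.79% for Myh3 and 0% for Myh7b. The sources used here do not say how reads with several matches were counted, and levels of the near-identical genes are less certain than those of Myh3 and Myh7b. Strand use in counting is not given either, and antisense or overlapping transcripts lie on Myh1 (Myhas), Myh2 (9430073C21Rik) and Myh7 (Mhrt, 55.4 to 130 CPM over the 9 mice), whose reads cannot be told from those of the chains.

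Libraries held 26444372 (KO5) to 40471957 (KO4) counts, and levels are given as CPM (counts relative to the library's size, with TMM factors) over the 9 mice. The 8 chains together took between 1.91% (KO4) and 2.56% (KO2) of all counts. The marker list of muscle fibres summed to 31733 to 38043 CPM, so the labelled tissue was borne out in all 9 mice. Shank3 read 29.4 CPM in KO1, 31.0 in KO3 and 34.4 in KO5, and 32.5 to 38.5 CPM in WT. Reads from all exons enter this value, which is therefore no check of the deletion. KO5 stood apart: its list of adipocyte markers summed to 1129 CPM against 186 to 403 CPM in the other 8 mice. KO4 stood apart in the list of cartilage and bone markers, which summed to 271 CPM against 37.1 to 131 CPM in the other 8. Xist, an RNA made from the inactive X chromosome, exceeded 100 CPM in 4 mice (KO3 and KO5, WT3 and WT4) and reached no more than 3.23 CPM in the other 5.

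Myh8, the neonatal chain, was the most abundant in every mouse. It read 15795 CPM in WT1, 14070 in WT2, 16152 in WT3 and 15298 in WT4. In the knockouts it read 16477 CPM in KO1, 17143 in KO2, 14006 in KO3, 13569 in KO4 and 19521 in KO5. KO5 held the highest and KO4 the lowest value, and the groups overlapped.

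Myh3, the embryonic chain, came second in every mouse. Its WT values were 4174, 4454, 5787 and 5675 CPM in WT1 to WT4. KO1 read 4302, KO2 4400, KO3 4905 and KO4 4228 CPM, inside the WT range, while KO5 read 2095 CPM, below every other mouse.

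The adult fast chains were all on, at a small part of the level of Myh8. Myh2 (IIa) read 738, 580, 785 and 672 CPM in WT1 to WT4 and 701, 795, 541, 473 and 722 CPM in KO1 to KO5. Myh4 (IIb), the fastest chain of the adult limb, read 692, 469, 703 and 591 CPM in WT and 630, 704, 468, 559 and 704 CPM in KO1 to KO5. Myh1 (IIx) read 561, 501, 597 and 544 CPM in WT and 528, 627, 441, 410 and 554 CPM in KO1 to KO5. KO2 and WT3 were high and KO3 and KO4 low for Myh1 and Myh2, and for all 3 adult chains the genotypes overlapped.

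Of the slow and cardiac chains, Myh7 was the most abundant. It read 584, 507, 867 and 842 CPM in WT1 to WT4 and 484, 600, 693, 713 and 336 CPM in KO1 to KO5, with KO5 the lowest of the 9. Myh6 read 217, 300, 293 and 289 CPM in WT and 254, 204, 141, 297 and 138 CPM in KO1 to KO5. KO2, KO3 and KO5 lay below every WT, and KO1 and KO4 in the WT range. Myh7b read 87.0, 95.8, 104 and 89.3 CPM in WT and 43.6, 89.2, 98.7, 91.6 and 41.0 CPM in KO1 to KO5. KO1 and KO5 had about the same low value, and the other 3 knockouts lay in the WT range. The heart genes Nppa and Myl7 were at or near 0, at most 0.339 and 0.195 CPM, and the list of 10 cardiomyocyte markers summed to 4.57 to 7.55 CPM over the 9 mice, where Myh6 alone read 138 CPM or more.

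**Figure D2:**
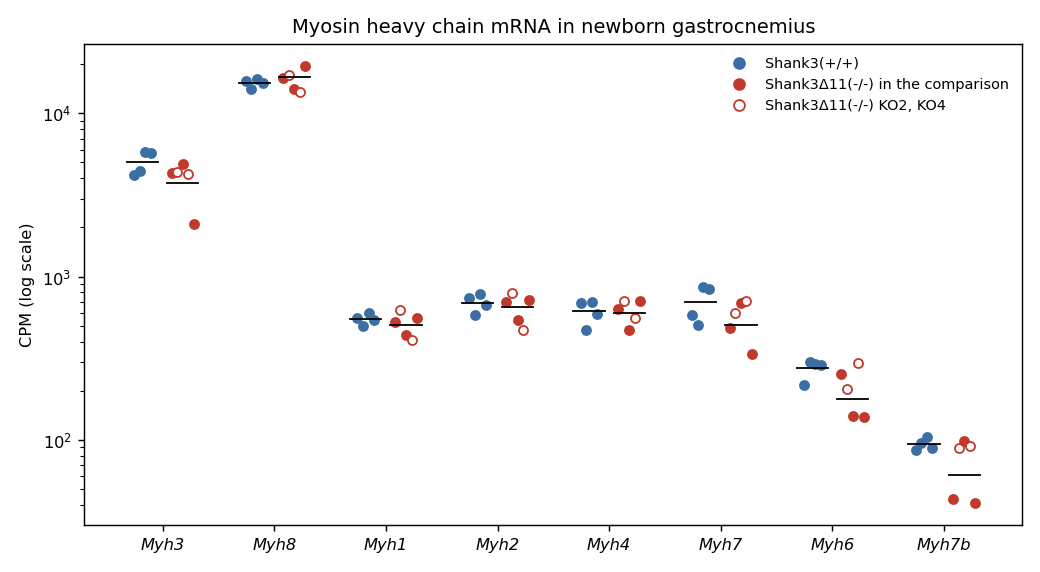
CPM of the 8 chains on a log axis; each point is a mouse, blue for WT and red for KO, open red circles are KO2 and KO4, and the black bar is the mean of the mice compared (4 WT, 3 KO). Myh8 lies above Myh3 and both above the other 6 chains in every mouse, and the genotypes overlap for all 8.

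Levels of different genes were compared per kilobase. The scale depends on the length used: all annotated exons span 11772 bases for Myh8, because transcripts with retained introns are annotated there, and 6057 for Myh3, while the coding parts span 5811 and 5820 bases. Per kilobase of annotated exon the WT mean was 1302 ± 77.2 CPM for Myh8 (SD, n = 4), 829 ± 137 for Myh3, 102 ± 18.1 for Myh4, 97.2 ± 12.4 for Myh2, 86.7 ± 6.29 for Myh1, 81.2 ± 21.05 for Myh7, 40.8 ± 5.80 for Myh6 and 14.2 ± 1.14 for Myh7b. Per kilobase of coding sequence Myh8 stood at 2638 ± 156 CPM, Myh3 at 863 ± 142 and Myh7 at 121 ± 31.2, ahead of Myh2 at 119 ± 15.2, Myh4 at 106 ± 18.7 and Myh1 at 94.5 ± 6.86 (SD, n = 4). On both scales Myh8 exceeded Myh3, and Myh3 the next gene, in 9 of 9 mice with no overlap of ranges. The ranges of Myh4, Myh2, Myh1 and Myh7 overlapped. Per exon length Myh2 was nevertheless above Myh1 in 9 of 9 mice, by 1.12 ± 0.0597 times (SD, n = 9), and Myh4 above Myh2 in 8 of 9. Per coding length Myh2 was above Myh4, and Myh4 above Myh1, in 8 of 9 mice each. The place of Myh7 was not beyond its spread: Myh1 exceeded it in 5 of 9 mice per exon length, and it exceeded Myh2 in 4 of 9 per coding length. Myh6 was above Myh7b in 9 of 9 mice, by 3.05 ± 1.18 times (SD, n = 9) per exon length.

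As shares of the 8 chains per kilobase of exon, the WT muscle held 51.1% ± 2.91 neonatal, 32.4% ± 3.07 embryonic, 11.2% ± 1.00 adult fast and 5.31% ± 0.538 slow or cardiac message (SD, n = 4). Per kilobase of coding sequence the same mice gave 66.0% ± 2.62 neonatal, 21.5% ± 2.38 embryonic, 7.96% ± 0.622 adult fast and 4.57% ± 0.574 slow or cardiac. The first split counts the retained introns of Myh8 in its length and so sets its level lower. Both developmental chains together made up 82.9% to 85.5% of the total over the 9 mice per exon length and 86.8% to 89.7% per coding length.

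In KO1, KO3 and KO5 the neonatal share per exon length was 56.1%, 50.9% and 69.8%, and the embryonic share 28.5%, 34.6% and 14.6%. Their means were 58.9% ± 9.79 and 25.9% ± 10.3 (SD, n = 3). KO2 held 55.5% neonatal and 27.7% embryonic message, and KO4 52.0% and 31.5%. With KO5 aside, the other 4 knockouts lay between 50.9% and 56.1% neonatal, where WT ran from 48.7% to 54.8%. The neonatal share differed, KO minus WT, by 7.77 percentage points in the 7 mice and by 2.32 with KO5 left out of the 3 knockouts. For the embryonic share these differences were -6.47 and -0.81. The adult fast share was 11.3% ± 1.67 in the 3 KO and 11.2% ± 1.00 in the 4 WT (SD), and the slow or cardiac share 3.92% ± 1.11 and 5.31% ± 0.538. The slow or cardiac share was 4.33% in KO2 and 6.35% in KO4, the highest of the 9 mice. Its difference, KO minus WT, was -1.39 percentage points in the 7 mice, -0.82 in the 9 mice, -0.81 with KO5 left out of the 3 knockouts and -0.39 with 4 against 4. Within the adult fast class, per coding length, WT held 37.3% ± 0.254 Myh2, 32.9% ± 1.93 Myh4 and 29.8% ± 1.87 Myh1, and the 3 KO held 37.1% ± 0.618, 33.9% ± 1.63 and 28.9% ± 1.31.

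**Figure D3:**
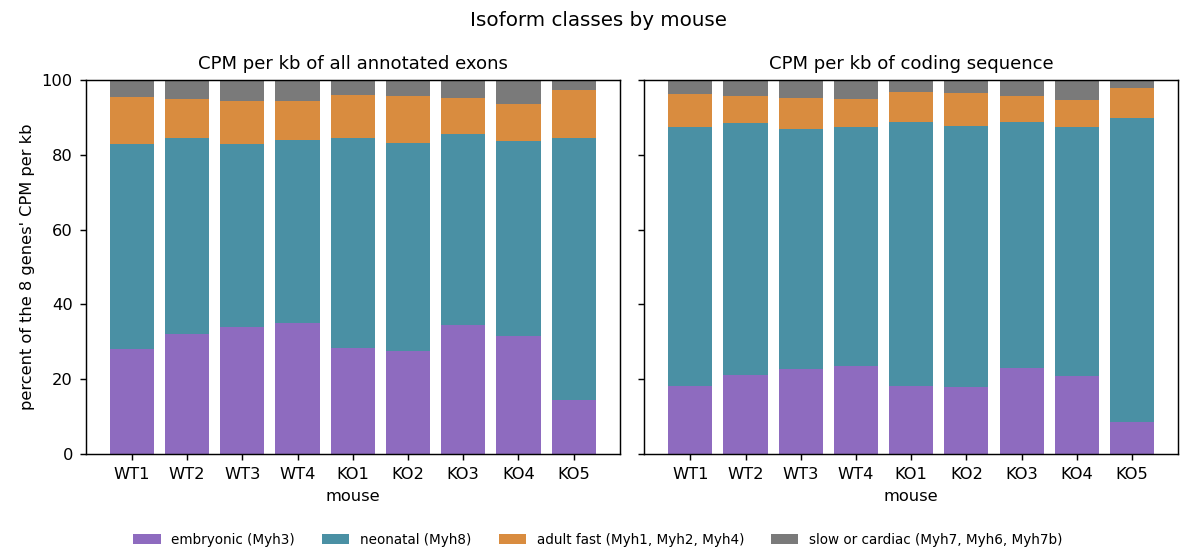
Share of each isoform class in the summed CPM per kilobase of the 8 chains, in percent, 1 bar per mouse, with length taken as all annotated exons (left) or coding sequence (right). KO5 has the smallest embryonic part, 14.6% on the left and 8.68% on the right, and the other 8 mice run from 27.7% to 35.1% on the left.

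The number of Myh8 messages per Myh3 message, per exon length, was 1.95, 1.63, 1.44 and 1.39 in WT1 to WT4 and 1.97, 2.00, 1.47, 1.65 and 4.79 in KO1 to KO5. On the log2 scale the mean was 0.66 ± 0.22 in WT (SD, n = 4) and 1.26 ± 0.89 in the 3 KO (SD, n = 3), a gap smaller than the spread of the knockouts. Per coding length the ratio was 9.33 in KO5 and 2.70 to 3.90 in the other 8 mice.

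The comparison of KO1, KO3 and KO5 with WT1 to WT4 tested 21809 genes in edgeR, and a gene was called at p below 0.05 together with an FDR below 25%, the criterion of the study. None of the 8 chains was called, as none of the genes tested was (0 genes, 0%). The paper, which used limma, does report differentially expressed genes at this criterion, and the difference from its result was not traced here. An unadjusted p below 0.05 was found for 453 genes (2.08%) and for 1 of the 8 chains, and DESeq2 called 6 genes, limma-voom 0. The chains below 0.05 depended on the method. They were Myh6 and Myh7b in DESeq2 (393 of 21809 genes) and in limma-voom (426 genes). With edgeR scaled to muscle fibre genes they were Myh3, Myh7, Myh6 and Myh7b (419 genes). In 284 genes (1.3%) all 3 knockouts lay below all 4 WT, and this held for none of the chains. The intervals that follow are 95% intervals of the fitted log2 fold change (KO over WT), and the exact permutation test over the 7 mice, 2-sided, cannot give a p below 0.0286. In a bulk sample, fewer fibres of a type and less message per fibre cannot be told apart.

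Myh6 had the smallest p, with a log2 fold change of -0.64 (95% interval -1.12 to -0.16, edgeR p = 0.0141, FDR = 1.00, exact permutation p = 0.0857). Myh7b followed at -0.63 (-1.26 to 0.01, edgeR p = 0.0519, FDR = 1.00, exact permutation p = 0.114) and Myh7 at -0.48 (-1.07 to 0.10, edgeR p = 0.0968, FDR = 1.00). All 3 slow or cardiac chains had fitted values below 0, and all 3 did so over the 5 knockouts too, at -0.41, -0.37 and -0.31 (edgeR p = 0.0826, 0.175 and 0.191, exact permutation p = 0.151, 0.294 and 0.278). In that comparison 0 of 21735 genes were called (0%) and 442 (2.03%) had an unadjusted p below 0.05, among them 0 of the 8 chains.

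Myh3 was fitted at -0.43 (95% interval -0.998 to 0.15, edgeR p = 0.129, exact permutation p = 0.200), and Myh8 at 0.11 (-0.21 to 0.43, edgeR p = 0.450, exact permutation p = 0.429), both with an FDR of 1.00. The adult fast chains were fitted with Myh1 at -0.13 (-0.39 to 0.14), Myh2 at -0.09 (-0.41 to 0.23) and Myh4 at -0.04 (-0.42 to 0.35). With all 9 mice, Myh3 was at -0.33 (exact permutation p = 0.214) and Myh8 at 0.07 (exact permutation p = 0.619).

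Some values moved with the mice taken in. With KO5 left out of the 3 knockouts, the log2 fold change was -0.14 for Myh3, -0.020 for Myh8, -0.26 for Myh7, -0.49 for Myh6 and -0.41 for Myh7b, each with an FDR of 1.00 in edgeR. With KO2 and KO4 taken in as well (4 against 4), the log2 fold change was -0.17 for Myh3, -0.0020 for Myh8, -0.17 for Myh7, -0.29 for Myh6 and -0.22 for Myh7b, each with an FDR of 1.00 in edgeR. Leaving out KO1 moved Myh6 to -0.99 with an FDR of 0.197 in edgeR, and leaving out KO3 moved Myh7b to -1.16 with an FDR of 0.0832, which are calls by the study's criterion that rest on 2 knockouts. Leaving out KO3 also moved Myh3 to -0.66 and Myh7 to -0.78, both with an FDR of 1.00 in edgeR. The adipocyte markers that were high in KO5 had no tested part in these values.

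The genotypes were also compared within the mice of high and of low Xist. Where Xist was high (2 KO, 2 WT), the difference in mean log2 CPM, KO minus WT, was -0.84 for Myh3, -0.82 for Myh7, -1.06 for Myh6 and -0.60 for Myh7b. Where it was low (KO1, KO2 and KO4 with 2 WT) the difference was -0.00085 for Myh3, 0.12 for Myh7, -0.03 for Myh6 and -0.36 for Myh7b. With KO1 alone, the knockout of the comparison in this part, it was -0.0033 for Myh3, -0.17 for Myh7, -0.0045 for Myh6 and -1.07 for Myh7b. With 1 to 3 mice a genotype these values were not tested, nor was the difference between the parts. The high part holds KO5: with KO3 as its only knockout the differences were -0.22 for Myh3, -0.30 for Myh7, -1.05 for Myh6 and 0.036 for Myh7b. With the level of Y-linked genes as a covariate in the 7 mice, Myh6 was at -0.63 and Myh7b at -0.73, both with an FDR of 1.00 in edgeR.

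**Figure D4:**
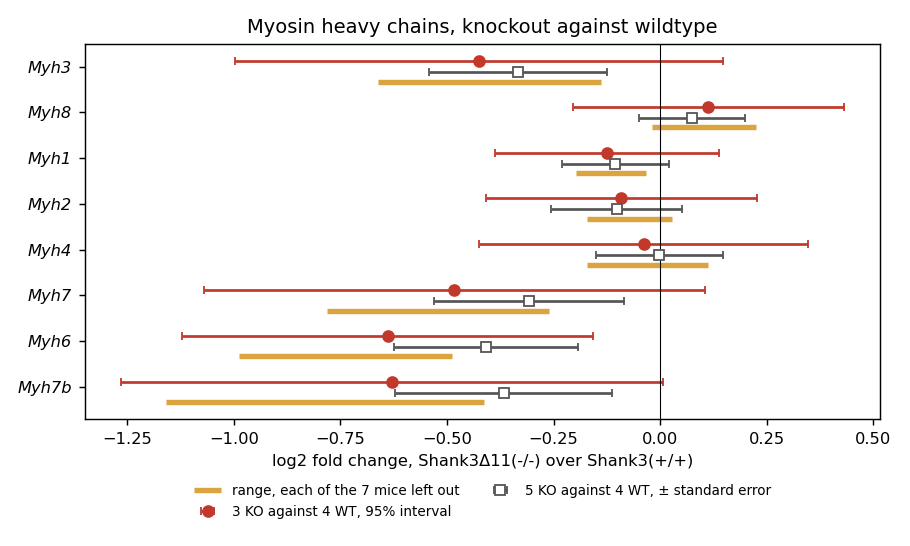
Fitted log2 fold change of each chain, KO over WT; red points with 95% intervals are 3 KO against 4 WT, open squares with standard errors are 5 KO against 4 WT, and yellow bars span the values with each of the 7 mice left out. The interval of Myh6, -1.12 to -0.16, is the only red one that does not reach 0.

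The chains varied in company. Over the 9 mice, log2 CPM was compared for all 28 pairs, with exact permutation p-values adjusted over the pairs, and 7 pairs had an adjusted p below 0.05 for Pearson's r and 4 for Spearman's rho. The tightest pair was Myh1 and Myh2 (r = 0.98, exact p = 2.48e-05, adjusted 0.000694, rho = 0.98, adjusted 0.00139), and r was 0.91 without KO3 and KO4, the mice farthest from the median. Of the coding windows, 27.2% in Myh1 and 27.9% in Myh2 occur in at least 1 other member, and the part of shared reads in this value was not tested. Myh2 and Myh4 gave r = 0.81 (exact p = 0.00977, adjusted 0.0451, rho = 0.90, adjusted 0.0215). Myh8 varied with Myh4 (r = 0.79, exact p = 0.00970, adjusted 0.0451, rho = 0.88, adjusted 0.0215) and with Myh2 (r = 0.79, exact p = 0.0113, adjusted 0.0451, rho = 0.82, adjusted 0.0603). Without KO4 and KO5 these values were 0.93 and 0.93. Myh1 with Myh8 (r = 0.73, exact p = 0.0260, adjusted 0.0809, rho = 0.77, adjusted 0.0856) did not pass the adjustment, and Myh1 with Myh4 (r = 0.75, exact p = 0.0202, adjusted 0.0707, rho = 0.88, adjusted 0.0215) passed for rho only. Myh8, Myh1, Myh2 and Myh4 are the genes whose promoters hold the shared 14 bases, and no test linked the letters to the levels.

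Myh3 went with Myh7 and Myh7b instead, by Pearson's r. It gave r = 0.89 with Myh7 (exact p = 0.00128, adjusted 0.0179, rho = 0.72, adjusted 0.115) and r = 0.74 with Myh7b (exact p = 0.0111, adjusted 0.0451, rho = 0.78, adjusted 0.0804), and Myh7 gave r = 0.79 with Myh7b (exact p = 0.00434, adjusted 0.0405, rho = 0.73, adjusted 0.109). Without KO5 and WT3 these fell to 0.70, 0.26 and 0.54, so the relation of Myh3 with Myh7b rests on those mice. Myh6, of the same class, gave r = 0.60 with Myh3 (exact p = 0.0914, adjusted 0.213, rho = 0.37), and 0.15 without KO5. With Myh7 its r was 0.50 (exact p = 0.174, adjusted 0.349), and with Myh7b 0.37 (exact p = 0.343, adjusted 0.589). Between Myh3 and Myh8 r was -0.62 (exact p = 0.0818, adjusted 0.208, rho = -0.28, adjusted 0.589), and 0.09 without KO5. No value was computed within the genotypes, which hold 4 or 5 mice.

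**Figure D5:**
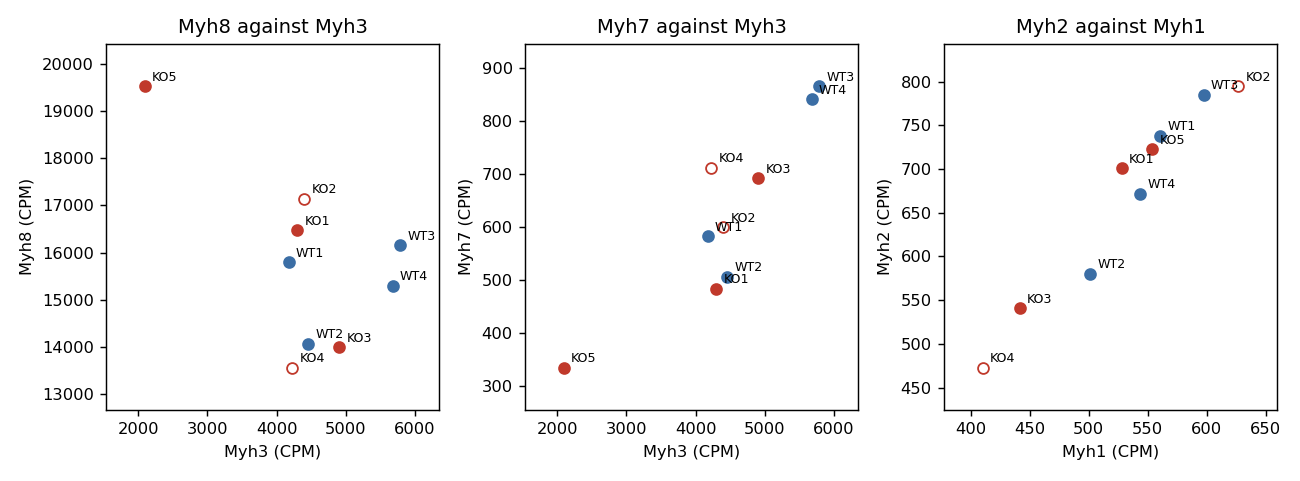
CPM of a pair of chains in each of the 9 mice, for Myh8 against Myh3 (left), Myh7 against Myh3 (middle) and Myh2 against Myh1 (right); blue is WT, red is KO, open circles are KO2 and KO4. KO5 is alone at 2095 CPM of Myh3, with the highest Myh8 and the lowest Myh7, and Myh1 and Myh2 lie close to a line.

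For Myh3, Myh8, Myh7 and Myh4 the 3 genes of highest r over the 9 mice were taken from 17976 genes, as a description. Closest to Myh3 were Sv2b, a synaptic vesicle protein (r = 0.98, rho = 0.92), Actc1, the cardiac actin that fetal skeletal muscle also makes (r = 0.98, rho = 0.95), and Igf2os (r = 0.98, rho = 0.87). Actc1 read 2608 CPM in KO5 and 4452 to 6401 CPM in the other 8 mice, and its r without KO5 was 0.91. Closest to Myh8 were 3 genes of myelinating glia, Mag (r = 0.98, rho = 0.98), Pllp (r = 0.95, rho = 0.90) and Gjc3 (r = 0.95, rho = 0.93). Mag, a myelin glycoprotein, read 9.23 CPM in KO5 and 1.5 to 5.37 CPM in the others, and its r without KO5 was 0.96. Closest to Myh7 were Dync1i1 (r = 0.98), Nptx1 (r = 0.97) and Brinp2 (r = 0.97), and closest to Myh4 were Pdzk1 (r = 0.92), Gm17036 (r = 0.92) and C2cd3 (r = 0.89). Each such pair comes from the same libraries and scaling, and some of the genes are low, Pllp at 0.443 to 3.23 CPM.

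The partners of each chain in the sarcomere were read from lists. Of the 11 fast partners (troponins, light chains, the calcium pump and others), 11 had fitted values above 0 (10 when scaled to muscle fibre genes) and 2 an unadjusted p below 0.05 in edgeR, with a median log2 fold change of 0.10. These were Actn3, the fast Z-disc actinin (0.62, edgeR p = 0.0413, exact p = 0.143), which read 448, 415 and 716 CPM in KO1, KO3 and KO5 and 306, 218, 375 and 461 CPM in WT1 to WT4, and Pvalb, a calcium buffer of fast fibres (1.23, edgeR p = 0.0331, exact p = 0.114), which read 25.3, 47.7 and 103 CPM in the 3 KO and 15.6 to 32.8 CPM in WT. Of the 9 slow partners, 9 were below 0 and 3 had p below 0.05, with a median of -0.24. These were Myl3, the slow and ventricular essential light chain (-0.41, edgeR p = 0.0253, exact p = 0.0571), Tnnc1, slow troponin C (-0.43, edgeR p = 0.0261, exact p = 0.0571), and Tnnt1, slow troponin T (-0.34, edgeR p = 0.0457, exact p = 0.114). Tnnc1 read 345, 368 and 239 CPM in the 3 KO and 370, 466, 377 and 486 CPM in WT, with all 3 KO below all 4 WT. KO2 was at 312 CPM and KO4 at 391 CPM, the latter inside the WT range. For Actn3, KO2 read 379 CPM and KO4 441 CPM, and for Pvalb 25.9 and 119 CPM. Myl3 read 188, 222 and 135 CPM in the 3 KO, 209 and 248 CPM in KO2 and KO4, and 221 to 265 CPM in WT. Tnnt1 read 617, 765 and 500 CPM in the 3 KO, 610 and 855 CPM in KO2 and KO4, and 704 to 853 CPM in WT. Over the 5 KO, Myl3 was at -0.26 (edgeR p = 0.105, exact p = 0.127) and Tnnt1 at -0.24 (edgeR p = 0.124, exact p = 0.159). In the same 9 mice Tnnc1 was at -0.36 (edgeR p = 0.0263, exact p = 0.0635), Actn3 at 0.50 (edgeR p = 0.0455, exact p = 0.103) and Pvalb at 1.37 (edgeR p = 0.0273, exact p = 0.111). KO5 was the lowest of the 9 mice in 7 of the 9 slow partners and the highest in 6 of the 11 fast partners. With KO5 left out, 8 of 9 slow partners were below 0 (median -0.15) and 9 of 11 fast partners above (median 0.040), and 0 of either list had an unadjusted p below 0.05 in edgeR. Over all genes the median was -0.01, with 10414 genes above 0 and 11395 below. Scaled to muscle fibre genes, the median over all genes was -0.045, with 8139 above 0 and 13670 below. No gene of any list was called.

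Of 5 developmental partners, 5 were below 0, with a median of -0.25. Among them Tnnt2, the troponin T of embryonic and cardiac muscle, had p below 0.05 (-0.28, edgeR p = 0.0358, exact p = 0.0286). Over the 5 KO, Tnnt2 was at -0.25 (edgeR p = 0.0189, exact p = 0.0159), with 318 to 396 CPM against 399 to 478 CPM in WT. KO5 was the lowest of the 9 mice in 4 of the 5 developmental partners. With KO5 left out, 2 of these partners were above 0 and 3 below, with a median of -0.025. Of 23 regulators of heavy chain genes, 5 were above 0 and 18 below, with a median of -0.07. Of these regulators Maf, a transcription factor, had p below 0.05 (0.27, edgeR p = 0.0371, exact p = 0.0857). It read 99.4, 83.3 and 104 CPM in the 3 KO and 69.9 to 86.4 CPM in WT, with KO2 at 86.2 and KO4 at 99.6 CPM. Maf was at 0.26 over the 5 KO (edgeR p = 0.0192, exact p = 0.0476). Of 13 genes for folding myosin and building the thick filament, 3 were above 0 and 10 below, with a median of -0.10, and Myom3, an M-band protein, had p below 0.05 (-0.37, edgeR p = 0.0412, exact p = 0.114). Myom3 was at -0.26 over the 5 KO (edgeR p = 0.0847, exact p = 0.143). In the comparison of 3 KO with 4 WT the myosin chaperone Unc45b was at -0.14 (edgeR p = 0.283, exact p = 0.314). Smyd1 was at -0.19 there (edgeR p = 0.178, exact p = 0.314). Of 6 other class II myosins, 5 were tested and none had p below 0.05. They include Myh13, the neighbour of the cluster known from eye muscle, at 260 to 387 CPM over the 9 mice. The nonmuscle chain Myh9 was at 0.09 (edgeR p = 0.436, exact p = 0.371) and Myh10 at -0.19 (edgeR p = 0.202, exact p = 0.343).

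With KO5 left out, the regulators had a median of -0.015 and the folding genes of -0.063, and 0 genes of the developmental, regulator and folding lists had an unadjusted p below 0.05 in edgeR. Marker lists of other cells were read beside these. Of 6 myoblast genes, 6 were below 0 with a median of -0.16, and Myod1, which drives the muscle lineage, had p below 0.05 (-0.41, edgeR p = 0.0109, exact p = 0.0286). Over the 5 KO, Myod1 was at -0.25 (edgeR p = 0.265, exact p = 0.278), and KO2, at 83.6 CPM, was the highest of the 9 mice. The myoblast list summed to 417 to 505 CPM in the 3 KO and 476 to 607 CPM in WT. Of 6 adipocyte genes, 4 were tested, 4 were above 0 and 4 had p below 0.05, with Cfd at 145 CPM and Adipoq at 78.7 CPM in KO5 against at most 9.02 CPM of each in the other mice. Of 6 smooth muscle, 7 cartilage and bone and 6 epidermis genes, and of the 4 cardiomyocyte genes of 10 that were tested, none had p below 0.05. The part of these cells in the levels of the chains was not tested.

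The introns of 3 members carry miRNA genes that are known to act within muscle, and their mature sequences are given with the seed (bases 2 to 8) in capitals because 2 of them share it. The coordinates are those of RefSeq on GRCm38.p6: Mir208a in Myh6, mature form at chr14:54949072-54949093 (minus strand), Mir208b in Myh7 at chr14:54975710-54975731 (minus strand), and Mir499 in Myh7b at chr2:155622893-155622913 (plus strand).
mmu-miR-208a-3p: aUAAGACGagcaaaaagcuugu
mmu-miR-208b-3p: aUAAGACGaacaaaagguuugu
mmu-miR-499-5p: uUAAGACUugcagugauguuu

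The miRNA loci of Myh6 and Myh7 share the seed UAAGACG, and that of Myh7b has UAAGACU. Counts on the miRNA rows were too few to compare, at most 0.0789 CPM for Mir208a, 0.0680 for Mir208b and 0.0977 for Mir499 over the 9 mice, so their hosts were the only readout of these loci here.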

How the data were processed

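RNA of the gastrocnemius was sequenced from 9 mice, and the authors deposited raw counts of reads for each Ensembl gene, made with HISAT2 on mm10 and featureCounts and not normalized. Counts were scaled by TMM and filtered with filterByExpr (minimum count 10, minimum total 15). Genes were tested with the robust quasi-likelihood test of edgeR 4.0.16 in R 4.3.3 with Benjamini-Hochberg adjustment over all genes, after a trial on simulated data. Exact permutation tests used log2 CPM (prior count 2). Exon lengths and coding sequences came from GENCODE M21, promoters and miRNAs from RefSeq, and all 8 members matched the promoter table. Alternatives covered mice, filters, scalings, DESeq2 1.42.0, limma 3.58.1, covariates and lengths. Plots used Python 3.11.15 and matplotlib 3.10.9. Named genes were the 8 members, list genes with p below 0.05 (up to 3 a direction) and the 3 genes most like each of 4 members; chaperones, other myosins and markers named beyond this were chosen after their values were seen. The members and lists were chosen with earlier results of these data known. The p-values measure the spread between single libraries of separate mice.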

Additional observations from a re-analysis of the deposited data

Results flagged for a closer look

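In groups of 4 or 5 mice, 26 tests for a mouse far from its group marked 4 values, where chance marks about 1 in 20. KO5 was far below the other knockouts in Myh3, at 2095 CPM, and far above them in the neonatal share, at 69.8% per exon length, and in the log2 ratio of Myh8 to Myh3, at 2.26. These 3 values are not independent, since Myh3 enters each. In WT, WT1 was far below the others in Myh6, at 217 CPM. The cause was not tested in either mouse.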

How the results depend on the processing

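Limits. The comparison rests on 3 knockouts, and leaving out a mouse decides some values. Genes called numbered 0 at first, 1 without the filter on low counts, 6 with DESeq2, 9 with the replicate number as a block and 2 with the block over all 9 mice, and 0 to 15 with each mouse left out (15 without KO1, 4 without KO3, 1 without WT2). Genes with an unadjusted p below 0.05 numbered 972 without the filter, 844 with the replicate block, 300 with KO5 left out of 4 against 4, and 224 (without KO5) to 968 (without KO1) with each mouse left out. The replicate numbers were not treated as pairs, since not every pair passed 0.1: the correlation of deviations between mice of the same number was 0.37, 0.05, 0.36 and 0.10, though for 3 of the 4 numbers the mouse correlated best with its own number, a hint from the data, not from the design. KO5 has no WT of its number, so in the 7 mice the block compares KO1 and KO3 with their numbers. Under the block, Myh8 moved to -0.077, and to -0.0083 over all 9 mice, Myh3 to -0.10, Myh6 to -0.42 (no longer with an unadjusted p below 0.05) and Myh7b to -0.53. Myh1 moved to -0.27, Myh2 to -0.31, Myh4 to -0.37 and Myh7 to -0.30, the last 3 with edgeR p of 0.0383, 0.0173 and 0.0213; FDR was 0.998 for all 8. With KO5 left out of 4 against 4, Myh8 was at -0.0020. Myh1 ran from -0.20 (without KO5) to -0.034 (without KO3) with each of the 7 mice left out. With each mouse left out, log2 fold changes ran from -0.020 (without KO5) to 0.22 for Myh8, from -0.17 to 0.029 (without KO3) for Myh2, from -0.17 to 0.11 (without KO3) for Myh4, which was also above 0 without WT1 (0.03) and WT3 (0.04), from -0.66 (without KO3) to -0.14 (without KO5) for Myh3, from -0.78 (without KO3) to -0.26 (without KO5) for Myh7, from -0.99 (without KO1) to -0.49 for Myh6 and from -1.16 (without KO3) to -0.41 for Myh7b. Over the 22 alternatives Myh1, Myh3, Myh7, Myh6 and Myh7b stayed below 0, and Myh6 had FDR from 0.197 to 1.00. The unadjusted p of the alternative's own test was below 0.05 in 16 of the 22 for Myh6 and 8 for Myh7b. It was so in 4 for Myh7, 2 for Myh3, 1 each for Myh2 and Myh4, and 0 for Myh1 and Myh8. Scaled to muscle fibre genes, edgeR p was 0.0487 for Myh3 (-0.47), 0.0368 for Myh7 (-0.51), 0.00278 for Myh6 (-0.69) and 0.0364 for Myh7b (-0.67). For Myh8 and the adult fast chains it was 0.282 to 0.713, and 0 genes were called. The cause was not tested.

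WT shares depend on the length used. The embryonic share was 21.5% from raw counts, 18.3% per unshared window and 21.5% per coding length. Per unshared window means that a gene's whole CPM was divided by its number of coding windows that no other member holds. Reads were not counted on those windows alone, so only the length differs. The neonatal share was 66.0%, 68.3% and 66.0%, the adult fast share 7.97%, 8.67% and 7.96%, and the slow or cardiac share 4.57% from raw counts and 4.57% per coding length. The log2 ratio of Myh8 to Myh3 in WT was 1.62, 1.91 and 1.62. Differences between genotypes in shares and ratio moved by less than 1 SD (the larger of the SDs between mice of the 2 genotypes) under each of these. The difference of the adult fast share, KO minus WT, nevertheless changed sign. It was 0.089 percentage points per exon length, -0.32 from raw counts, -0.43 per unshared window and -0.32 per coding length. With each mouse left out it ran from -0.70 (without KO5) to 0.96 (without KO3). With all 9 mice, list members with p below 0.05 numbered 0 for myoblasts, 2 for adipocytes, 1 for slow partners and 0 for myosin folding, and with scaling to muscle fibre genes 0 for regulators. With KO5 left out of the 3 knockouts, an alternative chosen after seeing the data, they numbered 2 for adipocytes and 0 for every other list.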
